A study of Mus musculus with 6 samples.

Results

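Krüppel-like factors (KLFs) were followed in RNA-seq data of WT mouse embryonic fibroblasts (MEFs) in which mitofusins, the outer membrane proteins that tether and fuse mitochondria, were modulated with small molecules. The members were 10 genes taken by symbol from the 55291 genes listed: Klf2, Klf3, Klf4, Klf5, Klf6, Klf7, Klf9, Klf10, Klf13 and Klf16. There were 3 groups of 2 libraries each: WT MEFs given Vehicle, WT MEFs given MASM7, a mitofusin activator, at 1 µM for 6 h, and WT MEFs given MFI8, a mitofusin inhibitor, at 20 µM for 6 h. All 6 libraries were polyA RNA of cells with intact mitofusin genes, so no group lacked the target of the compounds, and the compounds were used at different concentrations. Nothing in the labels says that the 2 libraries of a group came from separate cultures. The p-values thus measure only the spread between these libraries, which may be technical. The fits share this spread across genes, so a standard error can be smaller than a gene's own libraries alone would give.

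KLFs are transcription factors with a shared run of zinc fingers that bind GC-rich sequences and CACCC boxes, and the parts outside the zinc fingers decide whether a member activates or represses. Klf9, Klf10, Klf11, Klf13 and Klf16 recruit the Sin3 corepressor, Klf3, Klf8 and Klf12 recruit CtBP, and Klf2, Klf4, Klf5, Klf6 and Klf7 act mostly as activators. Several are early response genes with short-lived mRNA, and in fibroblasts members of the family act in the control of proliferation, of the response to TGF-β and of early adipogenesis.

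Each library held between 22791792 and 30677751 counts, and a member had between 216 and 5590 counts in a library, so that all 10 passed the filter on low counts that kept 14290 genes. The 10 members together took 0.043% to 0.0535% of a library's counts. Levels in a library are given as CPM, counts scaled to library size with TMM, for comparisons between libraries, and as TPM, which accounts for transcript length, for comparisons between genes. Of 9 fibroblast markers 8 were tested, and their summed TPM was between 3723 and 4725, although Lum had at most 4 counts and Thy1 6 to 19 counts. The endothelial marker Kdr, the macrophage marker Adgre1 and the adipocyte marker Plin1 were at 0 in all 6 libraries, and the summed TPM was 0.212 to 0.433 for 4 endothelial markers, 1.025 to 1.689 for 6 epithelial markers, 13.4 to 16.86 for 4 leukocyte markers and 0.283 to 0.719 for 3 adipocyte markers. Cd68 (8.913 to 11.882 TPM) and Csf1r (4.181 to 6.012 TPM) made up nearly all of the leukocyte sum, and both passed the filter. In bulk RNA, fewer cells with a transcript and less of it per cell cannot be told apart.

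The genes lie on different chromosomes. In GRCm38, Klf6 spans chr13:5861482-5870394 on the plus strand, Klf10 chr15:38291463-38300706 on the minus strand, Klf9 chr19:23141226-23168134 on the plus strand and Klf11 chr12:24651274-24662789 on the plus strand. Exons of Klf7 (chr1:64029447-64122282, minus strand) share 3196 bases, 39.3% of its exon length, with the lincRNA Gm26649 on the opposite strand. Since the strand setting of the counting is not given in the sources used here, reads of Klf7 and of this transcript cannot be told apart. Klf3 shares 3.59% of its exon length with Gm20033 on the opposite strand. No other member shared over 0.263% of its 50-base stretches with another annotated gene, and none of these stretches were shared between members, so the common zinc fingers do not mix the members' reads at that length.

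RefSeq start sites were matched for 7 of the 10 members and for Klf11, and not for Klf5, Klf10 and Klf16. The 250 bases before the start site are shown for Klf6 and Klf9, members past the threshold in a fit below, and for Klf11, the KLF outside the members with the largest change (RefSeq, GRCm38.p6). Capitals mark, on either strand, the core of the cAMP response element (TGACG), the AP-1 site (TGANTCA), the GC box (GGGCGG), the KLF box (CCACCC) and the CArG box, and overlapping copies run together.
Klf6 chr13:5861239-5861488, plus strand: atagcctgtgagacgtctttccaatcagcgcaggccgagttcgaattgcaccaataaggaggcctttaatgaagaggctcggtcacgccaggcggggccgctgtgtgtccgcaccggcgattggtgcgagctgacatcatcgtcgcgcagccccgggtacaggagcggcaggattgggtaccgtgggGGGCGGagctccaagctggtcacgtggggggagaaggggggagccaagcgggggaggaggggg
Klf9 chr19:23140976-23141225, plus strand: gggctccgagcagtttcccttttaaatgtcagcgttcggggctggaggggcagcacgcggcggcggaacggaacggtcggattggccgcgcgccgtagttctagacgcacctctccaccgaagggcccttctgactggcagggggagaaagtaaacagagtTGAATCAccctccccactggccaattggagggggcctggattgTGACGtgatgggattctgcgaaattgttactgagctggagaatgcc
Klf11 chr12:24651121-24651370, plus strand: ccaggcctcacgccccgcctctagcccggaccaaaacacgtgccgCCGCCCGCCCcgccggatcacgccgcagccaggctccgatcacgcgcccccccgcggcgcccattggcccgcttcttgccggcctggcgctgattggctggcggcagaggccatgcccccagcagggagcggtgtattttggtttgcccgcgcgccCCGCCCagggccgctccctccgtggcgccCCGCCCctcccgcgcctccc
The Klf6 window holds 1 GC box, 63 bases before the start site. The Klf9 window holds an AP-1 site at 89 bases and a cAMP response element core at 46 bases before the start site, and no GC box. The Klf11 window holds 4 GC boxes. The Klf11 span given above starts upstream of this start site, so the window overlaps it. The boxes at 49 and 20 bases before the start site lie within that span. Over the 7 members matched, 6 windows held a GC box, 4 a KLF box, 4 a cAMP response element core, 1 an AP-1 site and 0 a CArG box. Among all 32851 windows of the same length, the shares were 32.7%, 28.1%, 17.8%, 6.75% and 1.47%. These are matches of letters in short windows, and binding was not measured.

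With Vehicle, the members spanned a wide range of level. Klf6 was the highest at 99.42 ± 12.45 TPM (SD, n = 2), followed by Klf16 at 89.74 ± 16.01 TPM, and the libraries of this pair overlapped. Klf4 at 49.25 ± 9.70 TPM and Klf10 at 44.67 ± 3.19 TPM came next and overlapped each other. Klf3 had 18.49 ± 0.61 TPM and Klf2 17.62 ± 0.55 TPM. The 4 lowest members, Klf9, Klf7, Klf13 and Klf5, lay between 13.38 and 10.36 TPM, and each overlapped its neighbour in this order. By TPM, Klf6 stood at percentile 85.7 of the tested genes and Klf5 at percentile 38.1. Of 7 other KLFs, Klf8, Klf11 and Klf12 passed the filter, while Klf1, Klf14, Klf15 and Klf17 had 0 to 3 counts in a library. The plot of TPM by gene shows the 13 KLFs tested in this order.

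**Figure D1:**
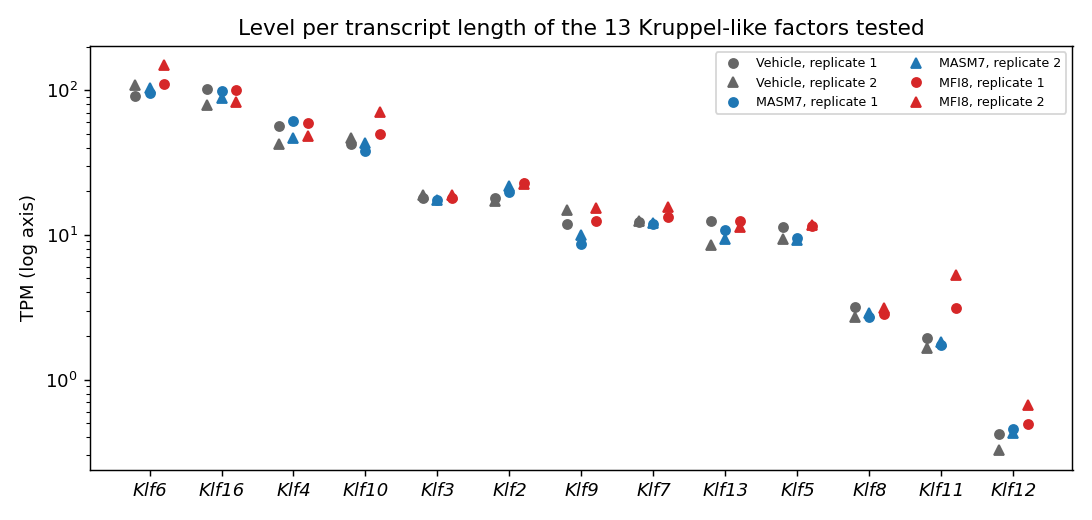
TPM on a log axis of the 10 members and of Klf8, Klf11 and Klf12 in each of the 6 libraries, ordered by the mean of the Vehicle libraries, with grey for Vehicle, blue for MASM7 and red for MFI8, circles for replicate 1 and triangles for replicate 2. Klf6 and Klf16 lie near 100 TPM, from 78.414 to 148.579, and Klf12 under 1 TPM.

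Whether inhibiting or activating mitofusins changed these factors was tested in edgeR for MFI8 against Vehicle, MASM7 against Vehicle and MFI8 against MASM7. Without a term for the replicate number, the edgeR quasi-likelihood fit, adjusted after Benjamini and Hochberg across the whole table, called 0 of 10 members in each of the 3 comparisons and 0 of 14290 genes (0%). At an unadjusted p under 0.05 it counted 3 members for MFI8 (9.86% of all genes), 2 for MASM7 (10.2%) and 5 for MFI8 against MASM7 (7.18%). The DESeq2 Wald test called 0 members in each comparison, beside 0.329%, 0.021% and 0.168% of all genes. Libraries with the same replicate number deviated together, weakly over all genes (r from 0.152 to 0.188) and more at higher levels (0.508 to 0.621). With the replicate number as a block, edgeR called 2 members for MFI8, 1 for MASM7 and 3 for MFI8 against MASM7. It then called 5.04%, 3.88% and 3.07% of all genes. Of all genes, 2.79% were called higher with MFI8, where both members lay, 1.39% lower with MASM7, where the 1 member lay, and 1.76% higher with MFI8 than with MASM7, where all 3 lay. Without the block and with no filter on low counts, edgeR called 2, 1 and 3 members, beside 0.957%, 0.475% and 0.628% of 26760 genes. With DESeq2 and the block, 0, 0 and 2 members passed, beside 1.57%, 1.35% and 0.784% of all genes. Its filter left an adjusted p for only 2, 1 and 10 of the 10 members. The first 2 comparisons share their Vehicle libraries. No exact permutation test was made, because 2 libraries a group cannot give p below 0.333.

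Klf6, an early response gene that activates growth arrest genes, was the most abundant member by the mean TPM of each group. Its levels were 113.3 and 133.6 CPM with Vehicle, 119.9 and 129.3 CPM with MASM7 and 133.9 and 181.1 CPM with MFI8. Both MFI8 libraries lay above both Vehicle libraries, by 0.3 CPM at the closest, and the MASM7 libraries lay within the Vehicle range. The log2 fold change of MFI8 against Vehicle was 0.35 ± 0.13 (SE) with an adjusted p of 0.419 in edgeR, and with the replicate block it rose by 0.35 ± 0.06, with an adjusted p of 0.000187. This call rested on MFI8 replicate 2, since without it the log2 fold change was 0.21 and the adjusted p 0.260. Against MASM7, the log2 fold change with the block was 0.33 ± 0.06 with an edgeR adjusted p of 0.000476 (0.620 without the block), and it was lost without MASM7 replicate 2 (log2 fold change 0.21, adjusted p 0.105) or MFI8 replicate 2 (0.19, 0.422). In DESeq2 with the block Klf6 did not pass in either comparison, with an adjusted p of 0.0614 against Vehicle and 0.232 against MASM7. For MASM7 against Vehicle the log2 fold change was 0.01, with a 95% interval from -0.27 to 0.29.

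Klf10, also called TGF-β-inducible early gene, is a Sin3-recruiting repressor that acts in SMAD signalling. It had 50.46 and 55.13 CPM with Vehicle, 45.17 and 51.84 CPM with MASM7 and 58.09 and 81.82 CPM with MFI8. The MFI8 libraries were the 2 highest of the 6, and the MASM7 and Vehicle libraries overlapped. Against Vehicle, the log2 fold change with MFI8 was 0.41 ± 0.14 without the block (edgeR adjusted p 0.412) and 0.40 ± 0.07 with it (adjusted p 0.000347). Without MFI8 replicate 2 the value with the block was 0.22 with an adjusted p of 0.314, and within the replicate numbers it was 0.20 in replicate 1 and 0.57 in replicate 2. DESeq2 with the block gave Klf10 no adjusted p in this comparison, and without its independent filter the adjusted p was 0.00968. Against MASM7, Klf10 was higher by 0.52 ± 0.07 on the log2 scale with the block (edgeR adjusted p 1.06e-05, against 0.446 without the block). This call held without each of the 6 libraries in turn, at log2 fold changes from 0.34 to 0.68, and in DESeq2 with the block (adjusted p 5.81e-05).

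Klf9 is induced by glucocorticoid and thyroid hormone and represses through Sin3. Its levels were 16.31 and 20.11 CPM with Vehicle, 11.83 and 13.81 CPM with MASM7 and 16.77 and 20.48 CPM with MFI8. Both MASM7 libraries lay below the 4 others, while Vehicle and MFI8 covered nearly the same range. With MASM7 the log2 fold change against Vehicle was -0.51 ± 0.14 (edgeR adjusted p 0.466), and with the block Klf9 fell by 0.51 ± 0.09, with an adjusted p of 0.00239. The call was lost without Vehicle replicate 2 (adjusted p 0.0511) or MASM7 replicate 2 (0.121), at log2 fold changes of -0.48 and -0.47. DESeq2 with the block gave Klf9 no adjusted p in this comparison, and without its independent filter the adjusted p was 0.079. Between the compounds, Klf9 was higher with MFI8 by 0.54 ± 0.09 with the block (edgeR adjusted p 0.000355, against 0.446 without the block), held without each of the 6 libraries in turn, and had a DESeq2 adjusted p of 0.026 with the block. For MFI8 against Vehicle the log2 fold change was 0.04, with a 95% interval from -0.27 to 0.34.

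**Figure D2:**
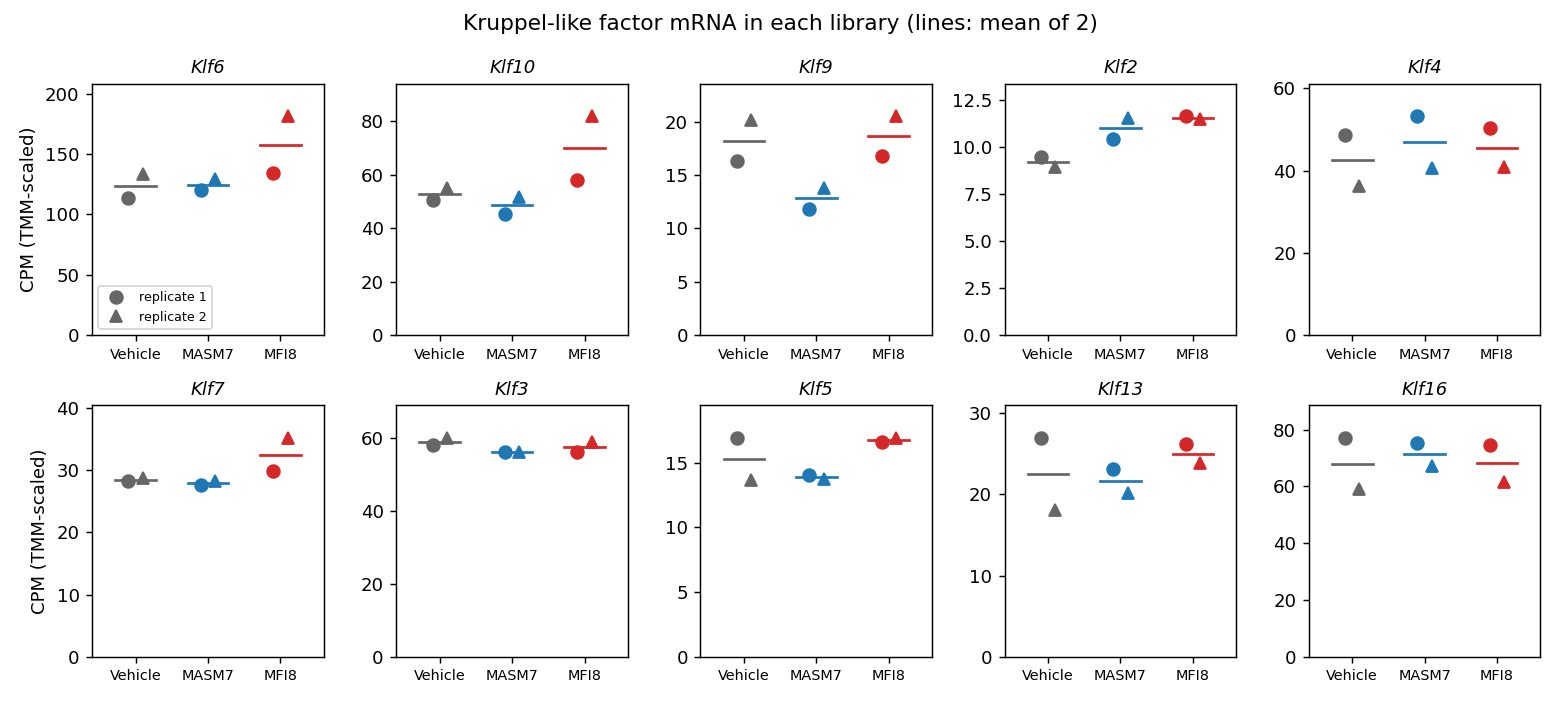
CPM, scaled with TMM, of each of the 10 members in each library, with a panel for each gene, circles for replicate 1, triangles for replicate 2 and lines for the mean of the 2 libraries of a group. Klf6 and Klf10 have their highest library in MFI8 replicate 2, at 181.1 and 81.82 CPM, and Klf9 has its lowest 2 libraries with MASM7, at 11.83 and 13.81 CPM.

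Klf2 and Klf4 are activators that ERK5 and MEF2 induce, in endothelium above all, and Klf4 is one of the factors that reprogram fibroblasts. Klf2 had 9.47 and 8.94 CPM with Vehicle, 10.45 and 11.54 CPM with MASM7 and 11.63 and 11.47 CPM with MFI8. Both Vehicle libraries were below the 4 treated ones. The log2 fold change was 0.33 ± 0.11 with MFI8 and 0.26 ± 0.11 with MASM7, and neither passed the edgeR test (adjusted p 0.412 and 0.485, and 0.084 and 0.178 with the block). Klf4 had 48.71 and 36.33 CPM with Vehicle, 53.15 and 40.69 CPM with MASM7 and 50.25 and 40.83 CPM with MFI8. The 3 groups overlapped, and the log2 fold changes of 0.10 with MFI8 and 0.14 with MASM7 had 95% intervals from -0.26 to 0.45 and from -0.21 to 0.50. With the block they were 0.11 and 0.14, with intervals from -0.02 to 0.23 and from 0.02 to 0.27. Neither passed with the block (edgeR adjusted p 0.372 and 0.177).

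Klf5 promotes proliferation and Klf7 axon growth in neurons. Klf5 had 16.88 and 13.63 CPM with Vehicle, 14.03 and 13.74 CPM with MASM7 and 16.55 and 16.88 CPM with MFI8. The MFI8 libraries were above the MASM7 libraries, at a log2 difference of 0.27 ± 0.11 (edgeR adjusted p 0.660, and 0.127 with the block), and Vehicle covered both. Klf7 had 28.24 and 28.70 CPM with Vehicle, 27.66 and 28.33 CPM with MASM7 and 29.83 and 35.16 CPM with MFI8. Against Vehicle, its log2 fold change under MFI8 was 0.19 ± 0.09 (edgeR adjusted p 0.518, and 0.128 with the block), with 0.08 within replicate 1 and 0.29 within replicate 2. Both MFI8 libraries were above the 4 others, but the Klf7 count may hold reads of the opposite strand.

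Klf3, a CtBP-recruiting repressor of adipogenesis, was the steadiest member, with 55.95 to 59.82 CPM over the 6 libraries. Its log2 fold change was -0.03 with MFI8, with a 95% interval from -0.17 to 0.10, and -0.07 with MASM7, with an interval from -0.20 to 0.06. Klf13, an activator of a chemokine gene in T lymphocytes, had 26.88 and 18.05 CPM with Vehicle, 23.06 and 20.18 CPM with MASM7 and 26.13 and 23.85 CPM with MFI8. Klf16, a Sin3-recruiting repressor, had 76.95 and 58.95 CPM with Vehicle, 75.36 and 67.22 CPM with MASM7 and 74.47 and 61.70 CPM with MFI8. For both genes the Vehicle libraries lay furthest apart and spanned at least 1 library of each compound. The log2 fold change with MFI8 was 0.16 for Klf13, with a 95% interval from -0.20 to 0.51, and 0.00 for Klf16, with an interval from -0.28 to 0.28. With the block, Klf13 passed for MFI8 against Vehicle only when Vehicle replicate 1 was left out, and Klf7 passed for MFI8 against MASM7 only when 1 of the Vehicle libraries was left out.

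Counted over the 10 members, 4 had both MFI8 libraries above both Vehicle libraries (Klf2, Klf6, Klf7 and Klf10) and 0 had both below, beside 20.9% and 19.3% of all tested genes. For MASM7 against Vehicle, 1 member was higher (Klf2) and 2 were lower (Klf3 and Klf9), beside 21.2% and 21.6%. For MFI8 against MASM7, 7 members were higher and 0 lower, beside 19.6% and 19.6%. The median log2 fold change of the members was 0.15 for MFI8, -0.04 for MASM7 and 0.21 for MFI8 against MASM7, where the medians of all tested genes lay between -0.00152 and 0.0027. The median for MFI8 was 0.04 within replicate 1 and 0.30 within replicate 2, and in the fit without the block it was 0.27 without Vehicle replicate 1 and 0.09 without Vehicle replicate 2. With 1 library left out, with or without the block, the median ran from -0.08 to 0.03 for MASM7, turning direction with the block and without Vehicle replicate 1, and from 0.10 without MFI8 replicate 2 to 0.33 without MFI8 replicate 1 for MFI8 against MASM7. The summed CPM of the members was 445.0 and 433.3 in the Vehicle, 436.5 and 432.7 in the MASM7 and 473.7 and 532.0 in the MFI8 libraries, and Klf6 held the largest part of the sum in each library.

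**Figure D3:**
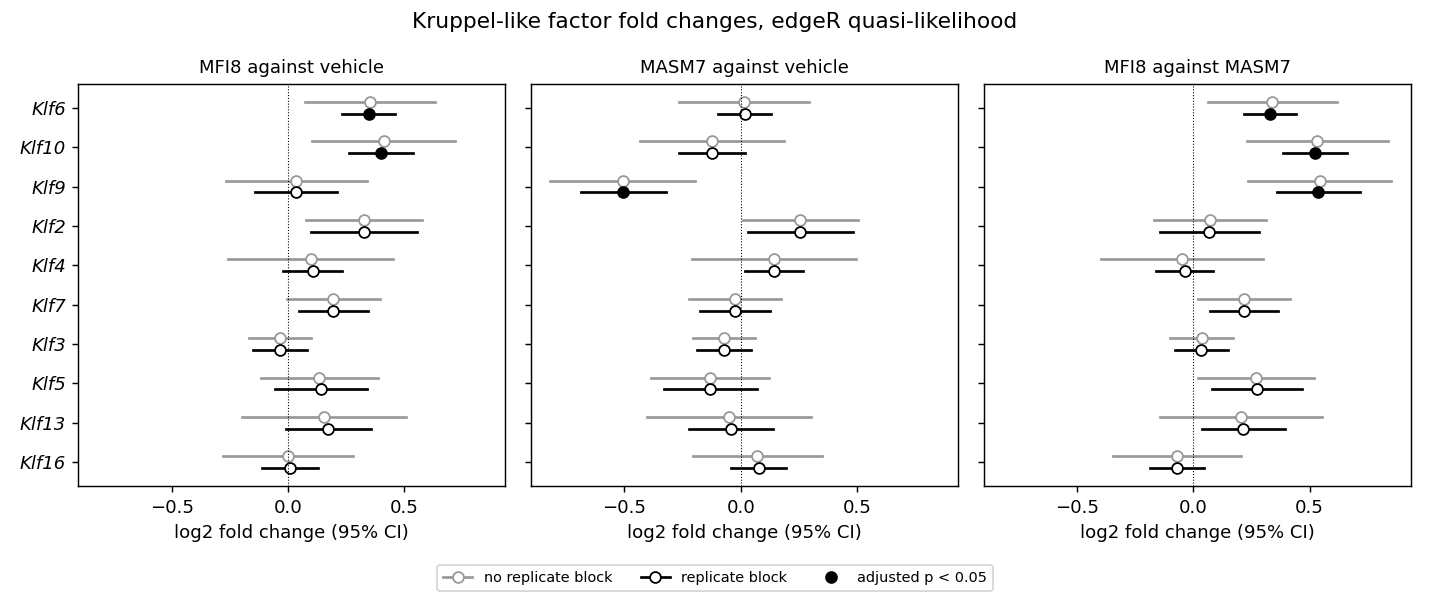
Log2 fold change with its 95% confidence interval of the 10 members in the 3 comparisons, in edgeR without the replicate block (grey) and with it (black). Filled points mark an adjusted p under 0.05, which 2, 1 and 3 members reach with the block and 0 without it.

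The replicate number moved several members as much as the compounds did. This term was examined after the data were seen. In the edgeR fit with the block, 6 of 10 members differed between replicate 2 and replicate 1 at an adjusted p under 0.05, beside 7.67% of all tested genes. Klf4 (log2 difference -0.37 ± 0.05, adjusted p 5.54e-06), Klf16 (-0.27 ± 0.05, 0.000205) and Klf13 (-0.29 ± 0.07, 0.00944) were lower in replicate 2, in all 3 groups. Klf6 (0.26 ± 0.05, edgeR adjusted p 0.000191), Klf10 (0.28 ± 0.06, 0.000901) and Klf9 (0.27 ± 0.07, 0.0149) were higher in replicate 2, in all 3 groups. Klf6 and Klf10 had their largest difference between the replicate numbers with MFI8, at 0.44 and 0.49 on the log2 scale. Fibroblast markers moved with the same numbers: Dcn had 82.634, 80.01 and 64.147 TPM in replicate 1 of Vehicle, MASM7 and MFI8 and 53.474, 55.931 and 43.681 TPM in replicate 2, and Pdgfra 14.885, 13.304 and 11.338 against 9.013, 8.252 and 7.463 TPM. By TPM, Dcn and Pdgfra were also lower with MFI8 than with Vehicle within both replicate numbers. Col1a1 and Vim were lower only within replicate 1. The part of these differences in the members' values was not tested, and what the replicate number stands for is not given in the sources used here.

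**Figure D4:**
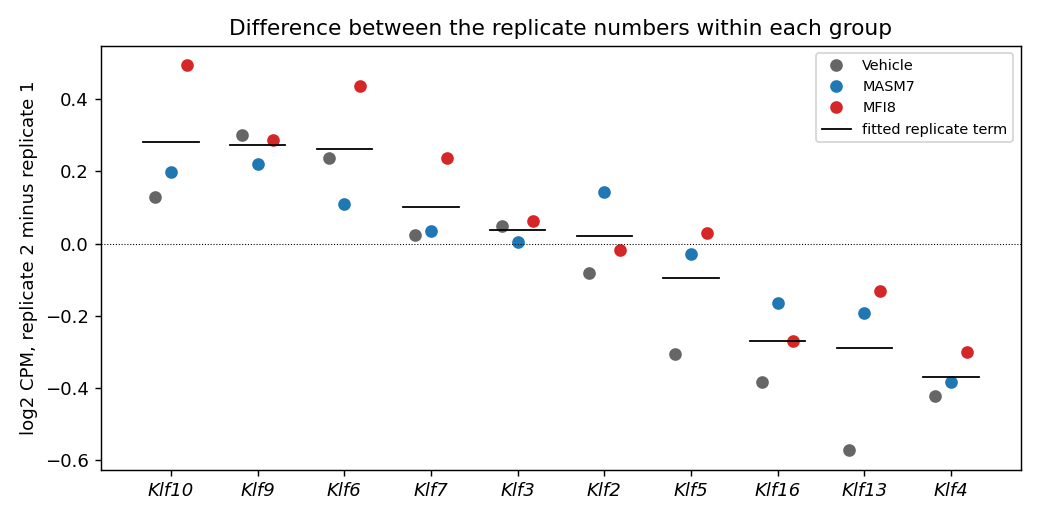
Difference in log2 CPM between replicate 2 and replicate 1 of each member within Vehicle (grey), MASM7 (blue) and MFI8 (red), with a line for the fitted replicate term, ordered by that term. Klf10, Klf9 and Klf6 lie above 0 and Klf16, Klf13 and Klf4 below 0 in all 3 groups.

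Among the other KLFs, 0 of the 3 tested passed without the block and 1 with it. Klf11, also called TGF-β-inducible early gene 2, is the closest relative of Klf10 and recruits Sin3. Its counts were 55 and 51 in the Vehicle, 64 and 69 in the MASM7 and 86 and 196 in the MFI8 libraries, or 2.41, 2.03, 2.16, 2.27, 3.75 and 6.35 CPM. Both MFI8 libraries were above the 4 others. Its log2 fold change with MFI8 was 1.21 (edgeR adjusted p 0.257) and 1.19 ± 0.21 with the block (adjusted p 0.000815), and this was lost without Vehicle replicate 2 (log2 fold change 0.80, adjusted p 0.141) or MFI8 replicate 2 (0.72, 0.286). Against MASM7 the log2 fold change was 1.19 ± 0.20 with the block (edgeR adjusted p 0.000653, and 0.321 without it), lost without MASM7 replicate 2 (log2 fold change 1.02, adjusted p 0.0984) or MFI8 replicate 2 (0.72, 0.333). Without MFI8 replicate 1, Klf11 also passed with no block, against Vehicle (log2 fold change 1.52, edgeR adjusted p 0.0175) and against MASM7 (1.52, 0.0209). DESeq2 with the block and without its independent filter gave Klf11 an adjusted p of 0.0662 against Vehicle and 0.087 against MASM7. With MASM7 against Vehicle the log2 fold change was 0.00 and did not pass (adjusted p 0.999). Klf8 and Klf12, partners of CtBP, had log2 fold changes with MFI8 of 0.00 and 0.64 and did not pass (adjusted p 0.999 and 0.551), and Klf12 had 16 to 40 counts.

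Of 9 Sp factors, the closest relatives of the family that bind the GC box, 5 were tested and 0 passed with or without the block. Sp1 had 183.1 to 205.7 CPM and Sp3 126.6 to 149.9 CPM, and their log2 fold changes with MFI8 were 0.04 and -0.13 (edgeR adjusted p 0.850 and 0.527). Among 6 corepressors, 0 passed without the block, and with it 1 fell with MFI8, the deacetylase Hdac2 (log2 fold change -0.17, edgeR adjusted p 0.0363), a call lost without Vehicle replicate 2 (log2 fold change -0.086, adjusted p 0.646), MFI8 replicate 1 (-0.18, 0.261) or MFI8 replicate 2 (-0.15, 0.509). Sin3a, Sin3b, Ctbp1 and Ctbp2 had log2 fold changes with MFI8 between -0.04 and 0.07. Of 3 coactivators, the acetyltransferase Crebbp rose with MFI8 with the block (0.25, adjusted p 0.0214). This was lost without Vehicle replicate 2 (log2 fold change 0.11, adjusted p 0.666) or MFI8 replicate 2 (0.20, 0.412), and the value was 0.39 without Vehicle replicate 1. Kat2b, another acetyltransferase, had 18.50 and 18.52 CPM with Vehicle, 15.38 and 14.46 CPM with MASM7 and 19.68 and 18.96 CPM with MFI8. With the block it fell with MASM7 (-0.31, adjusted p 0.0387) and was higher with MFI8 than with MASM7 (0.37, 0.0113), and each call was lost without any of 3 libraries, at log2 fold changes from -0.34 to -0.28 for MASM7 and from 0.34 to 0.38 between the compounds. DESeq2 with the block called none of these: its adjusted p was 0.079 for Hdac2, and for Kat2b 0.262 between the compounds, while without its independent filter it was 0.254 for Crebbp and 0.484 for Kat2b with MASM7. The 3 ubiquitin ligases of KLF proteins gave 0 calls, and Smurf1 and Wwp1 had the smallest p with MFI8, at log2 fold changes of 0.14 and -0.06.

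Of the 6 genes of the ERK5 and MEF2 axis, 0 passed in any comparison with or without the block, and Map3k3, the kinase at its head, had a log2 fold change with MFI8 of 0.12 (edgeR adjusted p 0.532) while Mef2c had -0.23 (0.707). Glucocorticoid receptor and its targets, to which Klf9 belongs, gave 0 calls of 5 tested without the block. With the block, Sgk1, a kinase that controls ion channels, rose with MFI8 (0.24, edgeR adjusted p 0.00132, lost without MFI8 replicate 2 at a log2 fold change of 0.19 and an adjusted p of 0.297), as did the clock gene Per1 (0.29, 0.0274). The Per1 call was lost without Vehicle replicate 2 (log2 fold change 0.17, adjusted p 0.586) or MFI8 replicate 2 (0.23, 0.442). In DESeq2 with the block, Sgk1 passed (adjusted p 0.00164), and Per1 did not without the independent filter (0.399). Fkbp5 had a log2 fold change with MFI8 of -0.05 and the receptor gene Nr3c1 of -0.14, and neither passed.

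The early genes of TGF-β signalling, to which Klf10 and Klf11 belong, were 6 as counted here, all tested. Without the block 0 passed, and with it 2 rose with MFI8, 1 with MASM7, and 2 were higher with MFI8 than with MASM7. Ccn2, a matricellular protein of fibrosis, had 86.59 and 116.5 CPM with Vehicle, 97.00 and 139.7 CPM with MASM7 and 118.9 and 168.0 CPM with MFI8. Its log2 fold change with the block was 0.50 for MFI8 (edgeR adjusted p 1.03e-07), which held without each library, and 0.22 for MASM7 (0.0133), which was lost without Vehicle replicate 2 (log2 fold change 0.17, adjusted p 0.326) or MASM7 replicate 2 (0.18, 0.275). Against MASM7 it was 0.28 higher with MFI8 (edgeR adjusted p 0.000534, lost without MFI8 replicate 2 at a log2 fold change of 0.27 and an adjusted p of 0.0757). Skil, a repressor of SMAD proteins, had a log2 fold change of 0.21 with MFI8 (adjusted p 0.0336) and of 0.32 against MASM7 (0.00125). The first was lost without Vehicle replicate 2 (log2 fold change 0.22, adjusted p 0.155) or MFI8 replicate 2 (0.10, 0.777), and the second without MASM7 replicate 2 (0.20, 0.225) or MFI8 replicate 2 (0.21, 0.402). In DESeq2 with the block Skil did not pass for MFI8 against Vehicle (adjusted p 0.126) and passed against MASM7 (0.0208). Ccn2 passed in all 3 comparisons there, for MASM7 at 0.0281 with the independent filter, and at 0.0951 without it that call was lost. The other genes, Smad7, Smad6, Tgif1 and Tgfb1, had log2 fold changes with MFI8 of 0.19, -0.24, 0.02 and -0.02 without the block. None of these passed in edgeR in any comparison, with or without the block.

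**Figure D5:**
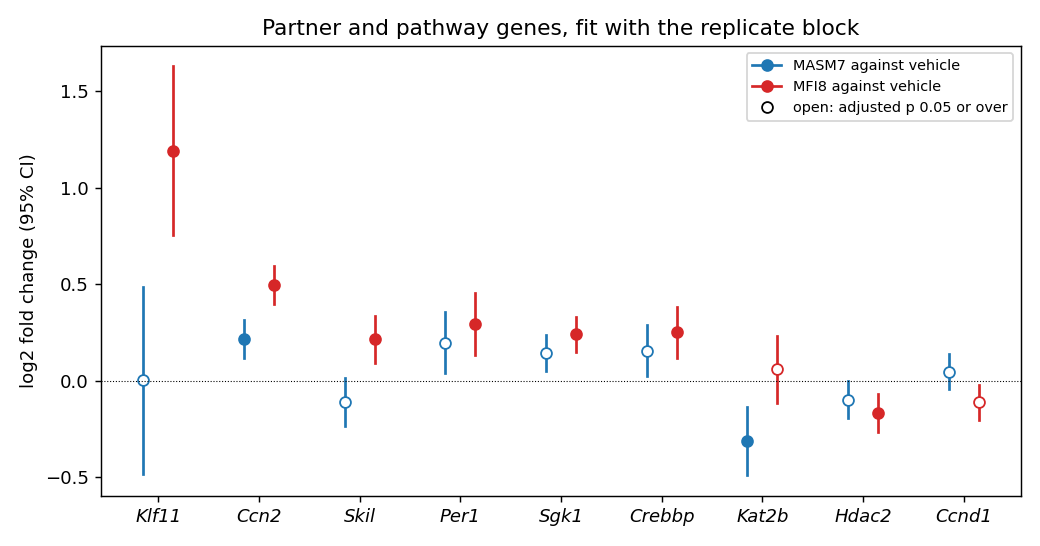
Log2 fold change with its 95% confidence interval, in edgeR with the replicate block, of 9 genes named from the lists, for MASM7 (blue) and MFI8 (red) against Vehicle, with filled points at an adjusted p under 0.05. Klf11 has the largest value, 1.19 with MFI8, and Ccn2 is filled for both compounds.

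Of the early adipogenesis circuit, 5 of 6 genes were tested and 0 passed in any comparison with or without the block. Cebpb and Dlk1 had the smallest p with MFI8, at log2 fold changes of 0.15 and 0.11. Of 7 known KLF targets 6 were tested, and 0 passed without the block. With it Ccnd1, the cyclin that drives entry into the cell cycle, was lower with MFI8 than with MASM7 (-0.16, edgeR adjusted p 0.0447), a call lost without any of 3 libraries (log2 fold changes from -0.18 to -0.10) and, at an adjusted p of 0.0679, in DESeq2 with the block and without its independent filter (0.0499 with it), and 0 passed against Vehicle. The cell cycle inhibitor Cdkn1a, a target of Klf4 and Klf6, had log2 fold changes with the block of 0.17 with MFI8 and 0.21 with MASM7, with adjusted p of 0.141 and 0.0666.

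The genes whose pattern over the 6 libraries was most like that of Klf10, by the root mean square difference of centred log2 CPM among 8889 genes with a mean of at least 10 CPM, were Csrnp1 (0.0666), Zbtb10 (0.0717), Klf6 (0.0912), Stx3 (0.0936) and Dusp16 (0.0981). The median gene was at 0.277. The counts of Csrnp1 were 557 and 677 in the Vehicle, 722 and 818 in the MASM7 and 727 and 1268 in the MFI8 libraries, and it shares its highest library with Klf10. Most like Klf2 were Faap100 (0.0251), Pdlim7 (0.0346), Ticam1 (0.0419), Naglu (0.0432) and Unk (0.0435), where the median gene was at 0.162. These are descriptions over 6 libraries that share groups and replicate numbers.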

How the data were processed

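RNA of WT MEFs was sequenced in 6 libraries, 2 each for Vehicle, MASM7 and MFI8. The authors trimmed reads with Trimmomatic, aligned them to mm10/GRCm38 with STAR and counted reads over exons with featureCounts; they deposited raw counts per gene, these counts divided by a size factor per library (not used here), and TPM values whose gene lengths, like the annotation release and strand setting, are not given in the sources used here. TPM hides depth, so tests used the raw counts. The groups and replicate numbers come from the sample labels. The concentrations and time are those the study gives for these cells.

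Counts were fitted in edgeR 4.0.16 (R 4.3.3) with filterByExpr, TMM, all 6 libraries and 1 coefficient per group, and compared by the two-sided quasi-likelihood F test with Benjamini-Hochberg adjustment over 14290 genes at 0.05. Standard errors and 95% intervals came from the same fit. Log2 CPM of single libraries used a prior count of 2. The replicate number was entered as a block in the alternative printed beside each result it changed: differences between replicate 2 and replicate 1 correlated across genes at r = 0.188 between Vehicle and MASM7, 0.152 between Vehicle and MFI8 and 0.165 between MASM7 and MFI8, all over 0.1, and the pairing rests on the numbers in the labels. Among the 7145 tested genes of higher mean level, these correlations were 0.508, 0.621 and 0.538. Other alternatives were DESeq2 1.42.0, other scaling, no filter on low counts, only the 2 groups compared, limma 3.58.1 on log2(TPM + 1), and each library left out. The scripts were tested on simulated data with known changes. Positions and exon lengths are from GENCODE vM21, promoter windows from RefSeq.

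The members and gene lists were chosen with earlier results of these data known. From each list, genes past the threshold in the fit with or without the block are named, at most 4, and otherwise the 2 with the smallest p for MFI8 against Vehicle; any further gene was picked with its values known. For Klf10 and Klf2, the members with the smallest p for MFI8 against Vehicle in the fit without the block, the 5 most similar genes are named. Of the list of early genes of TGF-β signalling, 1 gene is not reported here and is left out of the counts.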

Additional observations from a re-analysis of the deposited data

How the results depend on the processing

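In this paragraph, values are given in the order MFI8 against Vehicle, MASM7 against Vehicle and MFI8 against MASM7, beside 0 members and 0 genes called by edgeR in each comparison without the block. With no filter on low counts edgeR called 2 members (Klf6 and Klf10), 1 (Klf9) and 3 (Klf6, Klf9 and Klf10), and 256, 127 and 168 genes. With the replicate block it called 2, 1 and 3 members and 720, 554 and 439 genes, and the block changed no member call other than those printed above. The DESeq2 Wald test called 47, 3 and 24 genes, and with the replicate block 224, 193 and 112 genes and 2 members for MFI8 against MASM7. DESeq2 with the block gave an adjusted p for 2, 1 and 10 of the 10 members, since its filter left out the others. With only the 2 groups compared, 1 gene was called for MASM7 and 2 for MFI8 against MASM7. Alternatives chosen after seeing the data were the replicate block with library size alone (700, 533 and 505 genes, 2, 1 and 3 members), the replicate block with no filter (799, 842 and 520 genes, 2, 1 and 3 members) and DESeq2 with the replicate block and without its independent filter (187, 62 and 98 genes, with 1 member for MFI8 and 2 for MFI8 against MASM7). The log2 fold change of Klf16 with MFI8 was -0.000719 with DESeq2 size factors and -0.00111 with only the 2 groups compared, and that of Klf4 for MFI8 against MASM7 was 0.0051 in limma. The cause of these changes was not tested. Of the 330 member values under alternatives that kept all libraries of the groups compared, 298 kept their direction and their side of the threshold. Another 29 passed it newly, and 3 turned direction. The 298 include values to which DESeq2 gave no adjusted p, which were counted as not passing. Levels per length recomputed from the counts and vM21 exon lengths moved by less than the SD for all 10 members.

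Each library was left out in turn with and without the block, and a lone library was then assumed to vary like the other groups. Calls ranged from 0 to 3, 0 to 1 and 0 to 4 members and from 0 to 1107, 0 to 1234 and 0 to 803 genes. Without MFI8 replicate 1 and without the block, Klf6 (edgeR adjusted p 0.045) and Klf10 (0.0189) passed for MFI8 against Vehicle, Klf10 passed against MASM7 (0.00729), and Klf11, which is not a member, passed in both (0.0175 and 0.0209). The median log2 fold change of the members ran from 0.0533 (with the block, without MFI8 replicate 2) to 0.273 (with the block, without Vehicle replicate 1) for MFI8, beside 0.145 with all libraries, from -0.0758 to 0.0326 for MASM7 and from 0.101 (without MFI8 replicate 2) to 0.328 (with the block, without MFI8 replicate 1) for MFI8 against MASM7. Directions turned in 36 of 360 member values. For MFI8 against Vehicle, these were of Klf13 (-0.107 to 0.469), Klf16 (-0.18 to 0.206), Klf4 (-0.101 to 0.323), Klf5 (-0.0132 to 0.296) and Klf9 (-0.121 to 0.198). For MASM7 against Vehicle, these were of Klf13 (-0.314 to 0.26), Klf16 (-0.11 to 0.274), Klf4 (-0.0608 to 0.369), Klf5 (-0.282 to 0.0261), Klf6 (-0.101 to 0.138) and Klf7 (-0.0814 to 0.0307). For MFI8 against MASM7, these were of Klf16 (-0.205 to 0.0628), Klf2 (-0.0212 to 0.17) and Klf4 (-0.227 to 0.159).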
